A study of Mus musculus with 12 samples.

Results

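The genes described here are 10 components and targets of the NF-kB pathway, measured by bulk RNA-seq in mouse colon tumor cells with and without a Rac1 mutation. They are the NF-kB subunits Nfkb1, Nfkb2, Rela and Relb, the inhibitors Nfkbia and Nfkbie, the target genes Birc3 and Tnf, and the adhesion molecules Icam1 and Vcam1. They were chosen by name: a row of the count table belonged to the set when its Ensembl identifier carried 1 of these symbols in the GENCODE M21 annotation. All 10 were found among the 33217 mouse genes of the table, and all 10 passed the filter on low counts that left 14340 genes for testing.

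The cells were MC38, a colon adenocarcinoma line of C57BL/6 mice, either wild type (WT) or carrying the A159V mutation of Rac1, a small GTPase that controls the actin cytoskeleton and cell adhesion. In the study, cells were injected under the skin of C57BL/6 mice bought at 6 to 8 weeks of age, 100 µg of anti-PD1, which blocks the inhibitory receptor PD-1 on T cells, or of IgG control antibody was given every 3 days from day 3, and tumor cells were isolated on day 13. The 12 samples fell into 4 groups of 3 mice: WT IgG, WT anti-PD1 (aPD1), A159V IgG and A159V aPD1. The question was how the mutation alters tumor cells and their response to anti-PD1.

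The mutation was homozygous and was made by CRISPR knock-in at the native Rac1 locus, and the A159V line was 1 clone (clone 9 unless the text of the study says otherwise), so that genotype and other traits of that clone cannot be told apart. Counts per gene do not show a point mutation. The tumor cells were enriched by a magnetic kit that depletes host cells, and in bulk samples fewer cells of a type and less RNA per cell cannot be told apart. Markers of colon epithelium were near absent. Their sum over 11 genes was 2.31 to 8.5 counts per 1000000 (CPM) in any sample, and Epcam, Krt20 and Cdx2 had 3 counts or fewer in every sample. Total counts ranged from 14053582 to 21949942 per sample, at which 3 counts correspond to 0.144 to 0.201 CPM. Pairs of replicates had a Pearson's r over the tested genes (log2 CPM, genes not being independent replicates) of 0.964 to 0.985 in WT IgG and 0.972 to 0.992 in A159V IgG, below the 0.988 to 0.99 of the aPD1 groups at the low end.

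NF-kB is a family of dimeric transcription factors that lies in the cytoplasm, bound by IkB inhibitors, until a signal such as TNF, IL-1 or a Toll-like receptor ligand activates the IkB kinase (IKK). The kinase marks the IkB protein for degradation, and the freed dimer enters the nucleus and binds short kB sites. Among its targets are its own inhibitors, which close a feedback loop, survival genes, cytokines, and ICAM-1 and VCAM-1, the surface ligands by which integrins of leukocytes hold on to a cell. In the noncanonical arm, the Nfkb2 product is processed and pairs with RelB.

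Promoters of 4 of the genes held letters of a kB site. Windows of RefSeq (GRCm38.p6) from 250 bases before to 50 bases after a start site were found for 7 of the 10 genes, and were not used for Nfkb1, Relb and Vcam1. Each was searched on both strands for the kB consensus and for 2 exact kB forms, GGAAATTCC and GGACTTTCC, which overlap the consensus in some genes. The consensus was present in 8.46% of all 32851 windows of that length, GGAAATTCC in 0.317% and GGACTTTCC in 0.344%. Matches stood in 4 of the 7 genes, and 50 bases around a match are shown for each of these, with matched bases in capitals. The Nfkbia stretch lies at chr12:55492648-55492697 on the minus strand and holds GGAAATTCC within a consensus match. The Nfkbie stretch lies at chr17:45555574-45555623, the Nfkb2 stretch at chr19:46304687-46304736 and the Icam1 stretch at chr9:21015766-21015815, all on the plus strand.
Nfkbia: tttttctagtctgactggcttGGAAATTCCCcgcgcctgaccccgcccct
Nfkbie: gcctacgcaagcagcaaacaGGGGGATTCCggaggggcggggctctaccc
Nfkb2: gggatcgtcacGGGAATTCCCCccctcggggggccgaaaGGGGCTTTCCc
Icam1: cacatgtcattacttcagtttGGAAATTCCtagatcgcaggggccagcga
The 2 inhibitors and Nfkb2, an NF-kB subunit gene, held the consensus, and Icam1 held GGAAATTCC only. Outside the stretches shown, GGACTTTCC began at position -178 from the start site of Nfkbia, and stood within the consensus at 1 site of Nfkb2 (chromosome 19, 46305705 to 46305714) that the windows of 2 further start sites share. A separate consensus match, GGAATGTCCC, began at position -236 in 1 of these windows. The windows of Rela, Birc3 and Tnf had no match to these letters. A match is a description of the letters, and binding was not measured.

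Of the 10 genes, 3 differed between the genotypes, and it was the same 3 under either antibody: Nfkbie and Vcam1 were lower and Icam1 was higher in A159V tumor cells. Under aPD1 the Icam1 difference was close to the threshold and was lost under 5 of 10 other settings. A gene was called when the p-value of edgeR's quasi-likelihood test, adjusted by Benjamini-Hochberg over all 14340 genes, was under 0.05 and the absolute log2 fold change was above 0.3. By this rule 28% of all tested genes were called between A159V IgG and WT IgG (15.6% higher and 12.4% lower, a split that turned with other scalings, to 1680 higher and 2052 lower genes with RLE size factors and 1337 and 2313 with upper-quartile factors), and 21.4% between A159V aPD1 and WT aPD1 (11.2% higher and 10.2% lower), so that 3 of 10 is near the background and is not a result about the set as a whole. The median log2 fold change of the 10 genes was -0.09 under IgG and -0.05 under aPD1, beside 0.02 and 0.06 over all genes. The groups did not overlap for 5 of the 10 under IgG (35.8% of all genes) and for 3 of the 10 under aPD1 (56.2% of all genes). At an unadjusted p under 0.05 there were 4 of the 10 under IgG (40.3% of all genes) and 3 under aPD1 (35.8% of all genes). The 2 genotype comparisons share no sample, but both use the same WT and A159V lines and come from the same fit, so they are not independent.

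**Figure D1:**
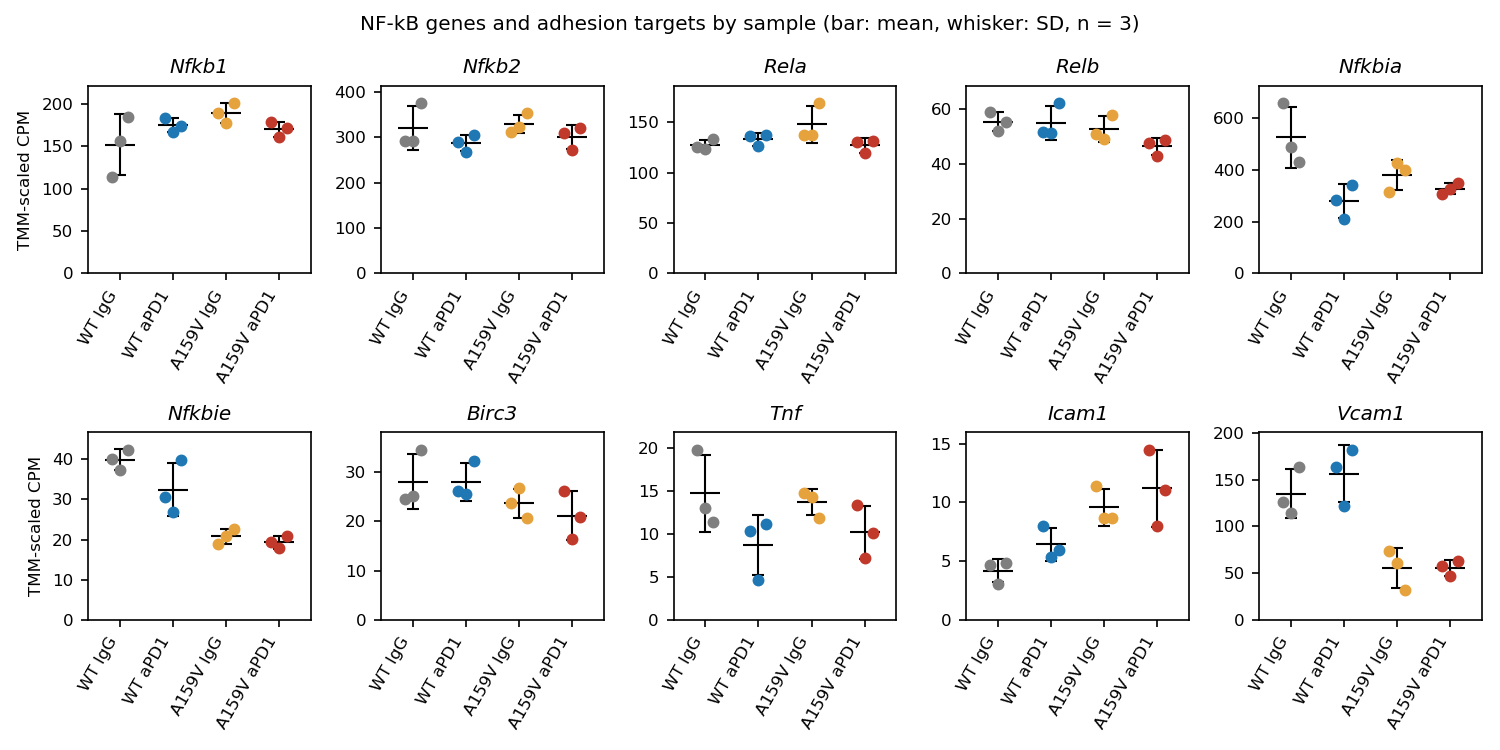
TMM-scaled counts per 1000000 (CPM) of the 10 genes in each of the 12 samples, with 1 panel per gene, a linear axis from 0, points for samples, a bar for the group mean and whiskers for the SD (n = 3). Nfkbie and Vcam1 are lower in all 6 A159V samples than in the 3 WT samples of the same antibody, and Icam1 is higher in A159V IgG than in WT IgG.

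Levels per kilobase of exon (RPKM) give a rough comparison between genes. The length counted all annotated exons of a gene, 12061 bases for Nfkb1 and 8870 for Vcam1 beside 1610 for Nfkbia. The order of the genes therefore depends on the annotation. Nfkbia was the highest of the 10 in all groups, with 327 ± 73.8 RPKM (SD, n = 3) in WT IgG and 204 ± 13.3 in A159V aPD1. Nfkb2 followed with 70 ± 10.5 RPKM and Rela with 41.4 ± 1.76 RPKM in WT IgG. Vcam1, Relb, Nfkbie and Nfkb1 lay between 12.6 and 15.2 RPKM in WT IgG, closer to each other than their SDs of up to 2.95. Icam1 was the lowest in all groups, from 0.961 ± 0.225 RPKM in WT IgG to 2.57 ± 0.754 in A159V aPD1. In the A159V groups Vcam1 moved down the order to 6.23 ± 2.42 RPKM under IgG and 6.29 ± 0.94 under aPD1, which differed from Nfkbie in the same group by less than the SD of Vcam1.

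The subunit genes showed little difference between genotypes. Rela, on chromosome 19 from 5637483 to 5648130 (mm10), encodes p65, the main activating subunit of the canonical pathway. Its CPM was 125, 123 and 133 in WT IgG, 136, 126 and 137 in WT aPD1, 137, 137 and 169 in A159V IgG, and 130, 119 and 131 in A159V aPD1. All 3 A159V IgG samples lay above the WT IgG samples, with replicate 5 standing higher, and the aPD1 groups overlapped. The log2 fold change of Rela was 0.22 (standard error 0.12, adjusted p = 0.184 by edgeR) under IgG and -0.07 (0.12, 0.708) under aPD1, with 95% intervals of -0.04 to 0.47 and -0.33 to 0.18.

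Nfkb1, on chromosome 3 from 135584655 to 135691547, encodes the precursor of p50, the usual partner of p65. Its CPM was 114, 156 and 185 in WT IgG, 183, 167 and 174 in WT aPD1, 189, 178 and 201 in A159V IgG, and 179, 161 and 171 in A159V aPD1. The low value was WT IgG replicate 1, and the genotype groups overlapped. Its log2 fold change was 0.32 (standard error 0.15, adjusted p = 0.138) under IgG, with an interval of -0.01 to 0.65, and -0.04 (0.15, 0.886) under aPD1. Under IgG the Nfkb1 difference passed the threshold without WT IgG replicate 4 (0.49, adjusted p = 0.0235) and was 0.09 (adjusted p = 0.62) without WT IgG replicate 1.

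Nfkb2, on chromosome 19 from 46304320 to 46312385, encodes p100, the precursor of the noncanonical subunit p52. Group means of Nfkb2 lay between 288 ± 18 CPM in WT aPD1 and 330 ± 20.6 CPM in A159V IgG. Its log2 fold change was 0.04 (95% interval -0.25 to 0.33) under IgG, where the sign changed with other scalings, and 0.06 (-0.23 to 0.35) under aPD1, where it also changed. Relb, on chromosome 7 from 19606217 to 19629438, encodes the partner of p52 and had means of 55.2 ± 3.46, 54.9 ± 6.19, 52.7 ± 4.68 and 46.3 ± 2.99 CPM in WT IgG, WT aPD1, A159V IgG and A159V aPD1. All 3 A159V aPD1 samples of Relb, at 47.6, 42.9 and 48.5 CPM, lay below the WT aPD1 samples, at 51.6, 51.1 and 62.1 CPM. The difference was -0.25 on the log2 scale (standard error 0.13, adjusted p = 0.178), and it passed when only the aPD1 groups were fitted (-0.33, adjusted p = 0.0191). The fifth subunit gene, Rel, is not among the 10. It was at 8.83 ± 4.22 CPM in WT IgG, 21.7 ± 4.19 in WT aPD1, 11.3 ± 1.81 in A159V IgG and 9.66 ± 1.63 in A159V aPD1, and was lower in A159V than in WT under aPD1 (log2 fold change -1.17, standard error 0.29, adjusted p = 0.0128). Rel is most abundant in lymphoid and myeloid cells, and leukocyte markers were highest in WT aPD1 as well, with a sum over 18 genes of 51.6 to 78.6 CPM against 34.1 to 63.9 CPM in the other groups. Their part in the Rel values was not tested.

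Of the 2 inhibitor genes, 1 was called between the genotypes. Nfkbie, on chromosome 17 from 45555703 to 45563169, encodes IkB epsilon, which holds p65 and c-Rel dimers and is made with a delay after activation. Its CPM was 40.1, 37.3 and 42.4 in WT IgG and 18.8, 20.9 and 22.6 in A159V IgG. With anti-PD1 it was 30.6, 26.9 and 39.7 in WT and 19.3, 17.8 and 21 in A159V. Every A159V sample lay below every WT sample, whichever antibody was given. The A159V level was 0.52 of WT under IgG (log2 fold change -0.94, standard error 0.15, adjusted p = 0.00111) and 0.597 of WT under aPD1 (-0.74, 0.15, 0.00495). Over all alternatives the log2 fold change of Nfkbie stayed between -1.08 and -0.87 under IgG and between -0.86 and -0.57 under aPD1, and passed the threshold in each.

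Nfkbia, on chromosome 12 from 55489410 to 55492647, encodes IkB alpha, the fast feedback inhibitor. Its CPM was 659, 489 and 430 in WT IgG, 284, 210 and 342 in WT aPD1, 315, 427 and 399 in A159V IgG, and 308, 327 and 351 in A159V aPD1. Every WT IgG sample lay above all 9 others, and the remaining groups overlapped. Between genotypes the log2 fold change of Nfkbia was -0.47 (standard error 0.2, adjusted p = 0.0948) under IgG and 0.24 (0.2, 0.424) under aPD1, and neither passed. Under IgG it passed without WT IgG replicate 4 (-0.59, adjusted p = 0.0451), and under 3 of 10 settings: DESeq2 (-0.55, adjusted p = 0.0374), the replicate block (-0.62, adjusted p = 0.0378) and upper-quartile factors (-0.61, adjusted p = 0.0461). Both genes are targets of the dimers they inhibit and carry the kB consensus shown above, and Nfkbie was called in both genotype comparisons whereas Nfkbia was called in neither. The difference between these 2 genes was not tested.

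Birc3 and Tnf, a survival gene and the cytokine that drives the pathway, were not called in any comparison. Birc3, on chromosome 9 from 7848699 to 7873186, encodes cIAP2, an E3 ligase of the TNF receptor complex. Its CPM was 24.6, 25.1 and 34.6 in WT IgG, 26.2, 25.5 and 32.3 in WT aPD1, 23.7, 26.7 and 20.8 in A159V IgG, and 26.2, 16.4 and 20.9 in A159V aPD1. The genotype groups of Birc3 overlapped under both antibodies, with log2 fold changes of -0.24 (95% interval -0.66 to 0.17, adjusted p = 0.363) and -0.4 (-0.82 to 0.02, adjusted p = 0.154). Under aPD1 the difference passed when only those groups were fitted (-0.49, adjusted p = 0.029).

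Tnf lies on chromosome 17 from 35199381 to 35202007, 1157 bases from Lta on the same strand. Its CPM was 19.8, 13 and 11.4 in WT IgG, 10.3, 4.69 and 11.2 in WT aPD1, 14.8, 14.3 and 11.9 in A159V IgG, and 13.4, 7.22 and 10.1 in A159V aPD1. The genotype groups overlapped throughout. Its log2 fold changes were -0.11 (95% interval -0.77 to 0.56) under IgG and 0.22 (-0.45 to 0.9) under aPD1. With a within-group coefficient of variation of up to 40.4%, Tnf was the most variable of the 10.

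Icam1 and Vcam1, both textbook NF-kB targets, differed between the genotypes in opposite directions. Icam1, on chromosome 9 from 21015985 to 21028817, encodes the ligand of the leukocyte integrins LFA-1 and Mac-1. Its CPM was 4.7, 3.06 and 4.81 in WT IgG and 11.4, 8.64 and 8.71 in A159V IgG, without overlap. With anti-PD1 it was 8.02, 5.36 and 5.95 in WT and 14.5, 7.97 and 11.1 in A159V, where the lowest A159V sample fell just under the highest WT sample. The A159V level of Icam1 was 2.28-fold that of WT under IgG (log2 fold change 1.19, standard error 0.26, adjusted p = 0.00574), and every alternative kept the call. Under aPD1 it was 1.73-fold (0.79, 0.25, 0.0407), close to the threshold. The aPD1 call was lost without A159V aPD1 replicate 1 (0.57, adjusted p = 0.166) or replicate 3 (0.81, adjusted p = 0.0985), and without WT aPD1 replicate 2 (0.68, adjusted p = 0.138) or replicate 3 (0.74, adjusted p = 0.141). It was also lost under 5 of 10 other settings, with adjusted p from 0.0505 to 0.0694 in those. In all of these the fold change stayed positive. Up to 511 bases of an Icam1 exon overlap Gm47079 on the opposite strand, and the strand setting of the counting is not given in the sources used here. Exons of Nfkb2 likewise overlap AC114539.1 (up to 501 bases) and Psd (299 bases), and those of Vcam1 overlap Gm43109 (61 bases), all on the opposite strand.

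Vcam1, on chromosome 3 from 116109949 to 116129688, encodes the ligand of the integrin VLA-4. Its CPM was 126, 114 and 163 in WT IgG and 73.6, 60.5 and 31.7 in A159V IgG. With anti-PD1 it was 163, 122 and 182 in WT and 57.8, 46.6 and 62.9 in A159V. All A159V samples were below all WT samples, and A159V IgG replicate 5 was the lowest of the 12. The A159V level of Vcam1 was 0.411 of WT under IgG (log2 fold change -1.28, standard error 0.26, adjusted p = 0.00412) and 0.358 of WT under aPD1 (-1.48, 0.27, 0.00208). Every alternative kept both calls, with log2 fold changes between -1.54 and -0.85 under IgG and between -1.62 and -1.35 under aPD1.

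The ratio of Vcam1 to Icam1, both per kilobase of exon, is given as a description, since both genes had been called in opposite directions. It was 13.1, 18.4 and 16.7 in WT IgG, 9.95, 11.2 and 15 in WT aPD1, 3.16, 3.44 and 1.78 in A159V IgG, and 1.96, 2.87 and 2.78 in A159V aPD1. All 6 WT values lay above all 6 A159V values.

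Vcam1 is also expressed by fibroblasts, pericytes and endothelium, and the sum of fibroblast and pericyte markers was lower in A159V, as Vcam1 was. The 12 fibroblast and pericyte markers summed to 582 to 1210 CPM in WT IgG and 805 to 1680 in WT aPD1, against 255 to 322 in A159V IgG and 267 to 352 in A159V aPD1. Of the 12, 8 were called lower and 0 higher in A159V under IgG (median log2 fold change -1.92), and 8 lower and 1 higher under aPD1 (median -1.69). Examples of those lower are Col3a1, a fibrillar collagen, at -2.66 (adjusted p = 0.000214) under IgG and -2.94 (adjusted p = 0.000111) under aPD1, and Dcn, a matrix proteoglycan, at -1.35 (adjusted p = 0.00624) and -1.86 (adjusted p = 0.0012). The 1 called higher under aPD1 was Acta2 (2.2, adjusted p = 0.0145). Under IgG 2 of the 12 had a positive log2 fold change, Pdgfra (0.62, adjusted p = 0.113) and Acta2 (0.29, adjusted p = 0.702). Under aPD1 Pdgfra was at -0.34 (adjusted p = 0.404). Only Rgs5, a pericyte marker, was at 3 counts or fewer in all A159V samples. Within the WT groups the order of the marker sum and of Vcam1 was the same only in part. In WT IgG, replicate 1 had a sum of 1210 CPM with Vcam1 at 126 CPM, and replicate 4 had 997 CPM with 163 CPM. In WT aPD1, replicate 3 was highest in both (1680 and 182 CPM). The part of these cells in the Vcam1 values was not tested.

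Endothelial markers were low in all groups, with a sum over 12 genes of 18.8 to 28.3 CPM, and of 5 that could be tested 1 was called higher and 1 lower under IgG and 0 higher and 2 lower under aPD1. Egfl7 and Cdh5 made up most of that sum, with group means of 11.4 to 14 CPM and 5.83 to 11.3 CPM. Cldn5, specific to endothelium, was at 3 counts or fewer in every sample. Leukocyte markers summed to 34.1 to 39.3 CPM in WT IgG, 51.6 to 78.6 in WT aPD1, 47.4 to 63.9 in A159V IgG and 48.6 to 53.9 in A159V aPD1. Of the 10 leukocyte markers tested, 1 was called higher (Cd68) and 2 lower (Ptprc, Nkg7) in A159V under IgG, and 0 higher and 5 lower under aPD1. The median log2 fold change of the 10 was -0.9 under IgG, or -0.24 with genes at or under 3 counts set to that level, and -0.77 under aPD1. The sum, like Icam1, was lower in WT IgG than in every other group, and Cd68, a macrophage gene, made up most of it, at 23.2 ± 2.8 CPM (WT IgG) and 40.7 ± 8.44 CPM (A159V IgG). Ptprc, which encodes the pan-leukocyte CD45, went the other way, at 1.31 ± 1.35 CPM (WT IgG) and 0.103 ± 0.106 CPM (A159V IgG). Of other macrophage markers on the list, Lyz2 was at 3.95 ± 0.388 CPM (WT IgG) and 6.07 ± 1.26 CPM (A159V IgG). Adgre1 was at 3 counts or fewer in every sample, and group means of Csf1r and C1qa were at most 0.358 and 0.27 CPM. The part of leukocytes in the Icam1 values was not tested. Ms4a1, of B cells, was at 0 in all groups, and Cd3e, Cd8a, Nkg7, Ncr1 and Itgam were at 3 counts or fewer in all A159V samples.

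**Figure D2:**
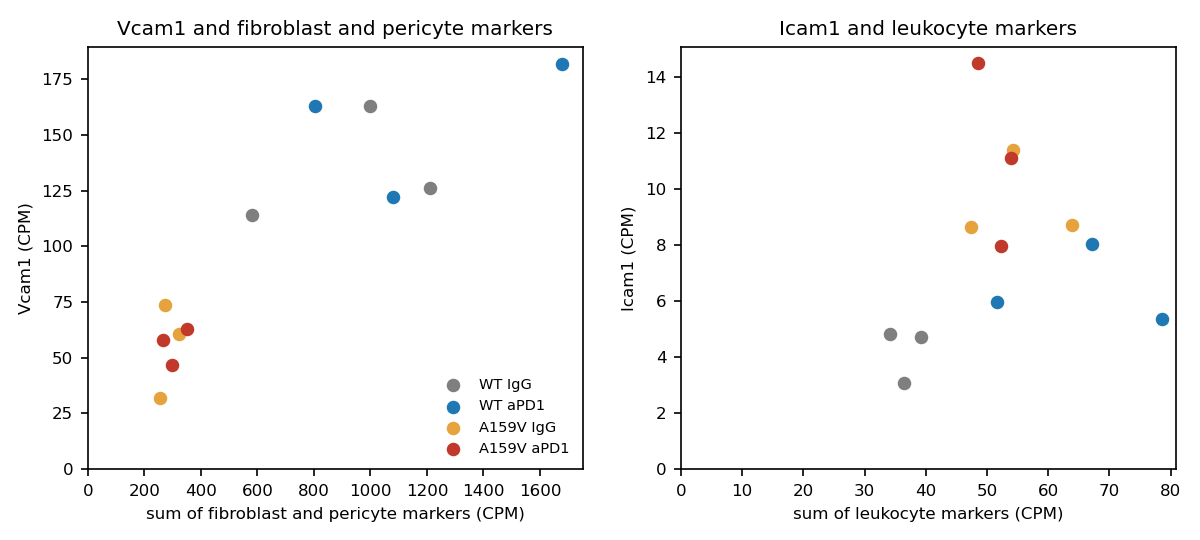
Adhesion genes against marker sums in the 12 samples, both axes in counts per 1000000 (CPM), linear from 0, and colors for the 4 groups. The left panel plots Vcam1 against 12 fibroblast and pericyte markers, where the 6 A159V samples lie together at low values of both (sums of 255 to 352 CPM). The right panel plots Icam1 against 18 leukocyte markers, where the 3 WT IgG samples are lowest in both (sums of 34.1 to 39.3 CPM) and Cd68 alone makes up most of the sum (mean 23.2 CPM for WT IgG, 40.7 CPM for A159V IgG).

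Anti-PD1 changed none of the 10 genes by the threshold. In WT, 0 of the 10 were called by edgeR, beside 0.628% of all genes, while 3 of 10 had an unadjusted p under 0.05, beside 27.5% of all genes, and 3 of 10 did not overlap, beside 34.5% of all genes. These 3 at an unadjusted p were Nfkbia, Tnf and Icam1. DESeq2 and voom each called 1 of the 10, Nfkbia. The log2 fold change of Nfkbia was -0.92 (standard error 0.2, adjusted p = 0.0564, 95% interval -1.35 to -0.48), from 526 ± 119 to 279 ± 65.9 CPM (SD, n = 3), and all 3 WT aPD1 samples lay below all 3 WT IgG samples. Its adjusted p ranged from 0.00204 to 0.145 over the 10 other settings, and from 0.00931 to 0.17 when 1 sample was left out. It passed with DESeq2 (-0.93, 0.00204), with the replicate block (-1.16, 0.0067), with voom (-0.92, 0.0487), without a filter on low counts (-0.93, 0.0122), without WT IgG replicate 4 (-1.04, 0.00931) and without A159V IgG replicate 5 (-0.93, 0.0394). Without WT IgG replicate 1, the highest sample, it was -0.73 (adjusted p = 0.139). In the replicate block, WT IgG replicate 4 and A159V IgG replicate 5 carry numbers that no other sample has. These samples then add nothing to the differences fitted with the block.

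Tnf went from 14.7 ± 4.44 to 8.72 ± 3.52 CPM with anti-PD1 in WT (log2 fold change -0.75, standard error 0.31, adjusted p = 0.15), and all 3 treated samples were below the IgG samples. Icam1 went from 4.19 ± 0.982 to 6.44 ± 1.4 CPM (0.62, 0.26, 0.154), and all 3 treated samples were above the IgG samples. Neither difference passed. Vcam1 differed by 0.21 on the log2 scale (95% interval -0.35 to 0.77) and Nfkbie by -0.3 (-0.63 to 0.03) in WT.

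The WT IgG samples also serve in the genotype comparison under IgG, and the WT aPD1 samples in that under aPD1.

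In A159V, 0 of the 10 genes were called by edgeR with anti-PD1, and 0 had an unadjusted p under 0.05, beside 0% of all genes called and 3.63% at an unadjusted p under 0.05. DESeq2 and voom called 0 of the 10 as well. The groups did not overlap for 2 of 10, beside 11% of all genes. These were Rela, at 137, 137 and 169 CPM with IgG and 130, 119 and 131 with aPD1 (log2 fold change -0.22, 95% interval -0.48 to 0.03), and Relb, at 51, 49.1 and 57.9 CPM with IgG and 47.6, 42.9 and 48.5 with aPD1 (-0.18, -0.45 to 0.09). For Nfkbia the difference in A159V was -0.21 (-0.64 to 0.22), and for Tnf it was -0.42 (-1.09 to 0.25).

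Whether the response to anti-PD1 differed between genotypes was tested as an interaction, the log2 fold change in A159V minus that in WT. By edgeR it was called for 0 of the 10 genes, beside 0.00697% of all genes (1 gene). DESeq2 and voom called 0 of the 10 as well, and DESeq2 called more of all genes than edgeR did, as given in the last section. At an unadjusted p under 0.05 by edgeR the interaction reached 1 of 10, Nfkbia, beside 17.6% of all genes. The interaction of Nfkbia was 0.71 (standard error 0.28, 95% interval 0.1 to 1.31, unadjusted p = 0.0258 and adjusted p = 0.244 by edgeR). For Nfkbie, Icam1 and Vcam1 it was 0.2 (-0.27 to 0.67), -0.39 (-1.17 to 0.39) and -0.2 (-0.99 to 0.6), so that their genotype differences were not shown to depend on the antibody.

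**Figure D3:**
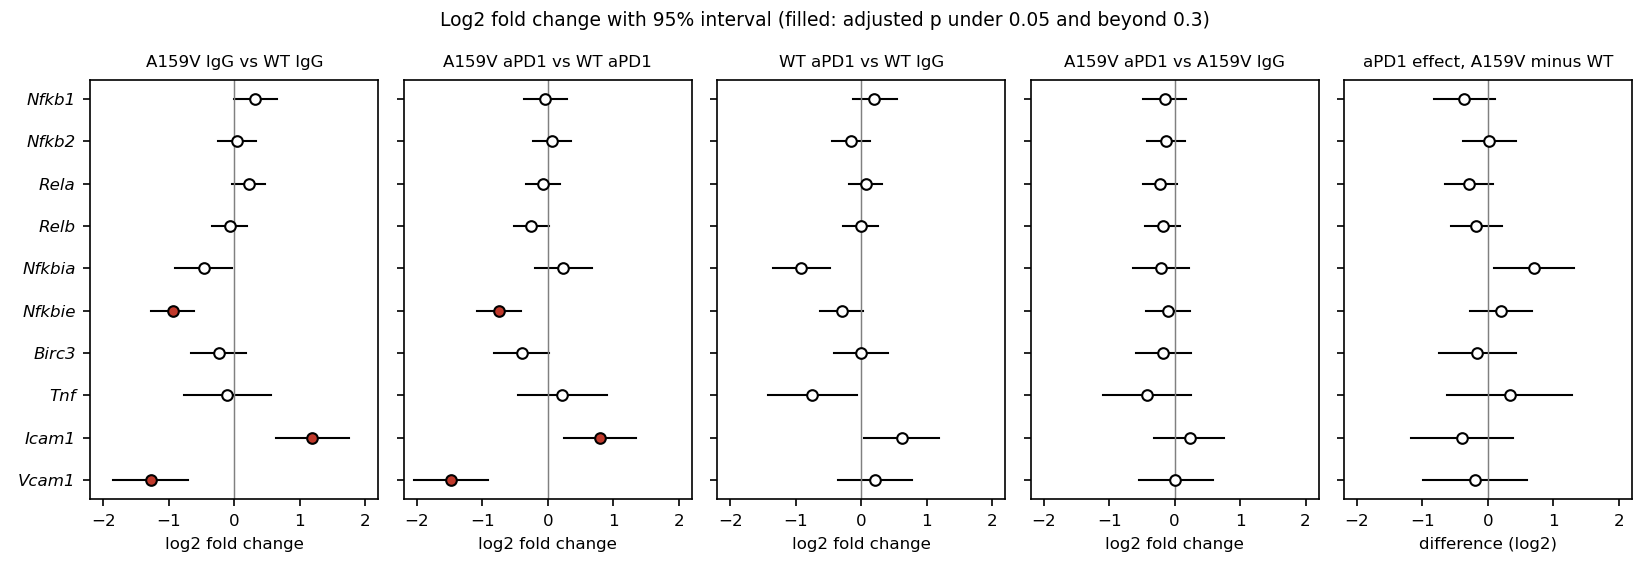
Log2 fold changes (points) with 95% intervals (lines) of the 10 genes in the 5 comparisons, on a common axis, with filled points for genes called. The filled points are those of Nfkbie (-0.94 and -0.74), Icam1 (1.19 and 0.79) and Vcam1 (-1.28 and -1.48) in the 2 genotype comparisons, and no point is filled in the other 3 panels.

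Around these 10 genes, 101 further genes of the pathway were listed by role, of which 88 were tested. Under IgG 11 of them were called higher and 18 lower in A159V, 33% of those tested beside 28% of all genes, and under aPD1 8 higher and 19 lower, 30.7% beside 21.4%. Their median log2 fold changes were 0.03 and -0.02. In both genotype comparisons, 5 were called higher (Lcn2, Lta, Mcam, Tnfrsf12a and Tnip1) and 12 lower. Since the lists were chosen with earlier results of these data known, their shares beside those of all genes are a description only.

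Of the 6 genes of the IkB family, Nfkbie was the 1 called in each genotype comparison, and the median log2 fold change was -0.23 under IgG and 0.23 under aPD1. Of the 5 genes of the IKK complex and its related kinases, 0 passed by edgeR in either comparison (medians -0.01 and -0.03). At an unadjusted p under 0.05 there was 1 of 5 in each, Ikbke, which encodes IKK epsilon, at -0.63 (adjusted p = 0.0872) and -0.67 (adjusted p = 0.0774), and DESeq2 called it in each. Of 5 subunit genes, 0 passed under IgG by edgeR, voom or DESeq2 and 0 had an unadjusted p under 0.05, and 1 passed under aPD1, Rel (medians 0.22 and -0.07).

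Among 15 genes of the TNF receptor complex, 2 were higher and 3 lower under IgG, and 0 higher and 1 lower under aPD1 (medians -0.06 and -0.02). The receptors of TNF itself were the higher ones. Tnfrsf1a rose from 109 ± 4 CPM (SD, n = 3) in WT IgG to 167 ± 11.6 in A159V IgG (log2 fold change 0.62, standard error 0.11, adjusted p = 0.00182), and Tnfrsf1b had 0.58 (adjusted p = 0.00894). Birc2, which encodes cIAP1 and lies 11634 bases from Birc3 on the same strand, fell from 41.6 ± 2.43 to 22.3 ± 2.77 CPM (-0.9, 0.14, 0.000813) under IgG and from 39.4 ± 3.92 to 29.6 ± 2.99 CPM under aPD1 (-0.41, 0.14, 0.0472). The adaptor Tradd (-0.48, adjusted p = 0.035) and Sharpin, a subunit of the linear ubiquitin ligase (-0.58, adjusted p = 0.0368), were lower under IgG.

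In the noncanonical arm, with 7 genes of which 6 were tested, 1 was higher and 1 lower under IgG, and 2 higher and 2 lower under aPD1 (medians 0.15 and 0.09). Tnfrsf12a, the receptor of TWEAK, was higher in both (0.48, adjusted p = 0.0301 and 0.54, adjusted p = 0.0219). Under aPD1 Ltbr, the lymphotoxin beta receptor, was higher (0.37, adjusted p = 0.0284), and Map3k14, the kinase NIK that starts p100 processing, was lower (-0.67, adjusted p = 0.0103). Tnfrsf13c, the BAFF receptor of B cells, was called lower in both, at 0.845 ± 0.169 CPM in WT IgG and 1.23 ± 0.114 in WT aPD1 and at 0 to 4 counts in each A159V sample.

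Of 11 genes of the IL-1 and Toll-like receptor arm, 1 was higher under IgG, the kinase gene Irak4 (0.41, adjusted p = 0.0327), and 0 passed under aPD1 by edgeR, DESeq2 or voom, with 2 of 11 at an unadjusted p under 0.05 (medians 0.22 and -0.21). Of 10 ligands that induce the pathway, 5 were tested, since Ltb, Il1a, Cd40lg, Tnfsf11 and Tnfsf14 were too low. Of these, 1 was higher and 1 lower in each genotype comparison (medians -0.25 and 0.15). Lta, the gene of lymphotoxin alpha beside Tnf, was higher in A159V, with 0.386 ± 0.331 CPM in WT IgG and 2.04 ± 0.306 in A159V IgG (2.38, 0.48, 0.00379), and 0.458 ± 0.239 CPM in WT aPD1 and 1.94 ± 0.169 in A159V aPD1 (2.03, 0.47, 0.00952). Its counts were 3 to 14 in the WT samples and 32 to 47 in the A159V samples, while Tnf, its neighbor, was not called. Tnfsf13b, the gene of BAFF, was lower under IgG (-0.99, adjusted p = 0.0409). Il1b was lower in A159V under aPD1, from 2.35 ± 0.414 CPM to 0.235 ± 0.163 CPM (-3.29, 0.98, 0.0306).

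The 11 feedback genes, among them Nfkbia, Nfkbie and Birc3, had 1 higher and 2 lower under IgG and 1 higher and 4 lower under aPD1 (medians -0.24 and 0.01). Traf1, an adaptor that NF-kB induces, fell from 64.9 ± 14.9 to 32 ± 7.89 CPM under IgG (-1.02, 0.23, 0.00742) and from 45.1 ± 5.08 to 26 ± 7.18 CPM under aPD1 (-0.8, 0.24, 0.0295). Tnfaip3, which encodes the deubiquitinase A20, was lower under aPD1 (90 ± 28.4 to 40.6 ± 6.91 CPM, -1.15, adjusted p = 0.00562), as was Zc3h12a, the RNase Regnase-1 (-0.58, adjusted p = 0.0436). Tnip1, the A20-binding partner ABIN-1, was higher in both (0.55, adjusted p = 0.00399 and 0.34, adjusted p = 0.0471).

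Of 23 other target genes, 22 were tested, of which 2 were higher and 9 lower under IgG and 3 higher and 6 lower under aPD1 (medians -0.22 and 0.05). Among genes lower under IgG, small p-values went to Ccl2, a monocyte chemokine, which fell from 481 ± 98.6 to 190 ± 64.6 CPM (-1.34, 0.24, 0.00181), and Mmp9, a gelatinase, which fell from 46.6 ± 32 to 8.19 ± 1.08 CPM (-2.51, 0.49, 0.00297). Ccl5, a T cell chemokine (-1.67, adjusted p = 0.00371), and Irf1, an interferon response factor (-0.78, adjusted p = 0.00469), were lower as well. Lcn2, the iron-scavenging lipocalin and the target with the smallest p under IgG, was higher, from 6.1 ± 2.86 to 22.9 ± 3.2 CPM under IgG (1.91, 0.32, 0.00122) and from 7.79 ± 3.17 to 21 ± 3.05 CPM under aPD1 (1.44, 0.31, 0.00625). Under aPD1 Mmp9 (-3.21, adjusted p = 0.000954), Ccl5 (-1.4, adjusted p = 0.0118), Csf1, the macrophage growth factor (-0.61, adjusted p = 0.0116), and Cflar, an inhibitor of caspase-8 (-0.71, adjusted p = 0.0125), had the smallest p among those lower. Called targets went in either direction, as did Icam1 and Vcam1.

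**Figure D4:**
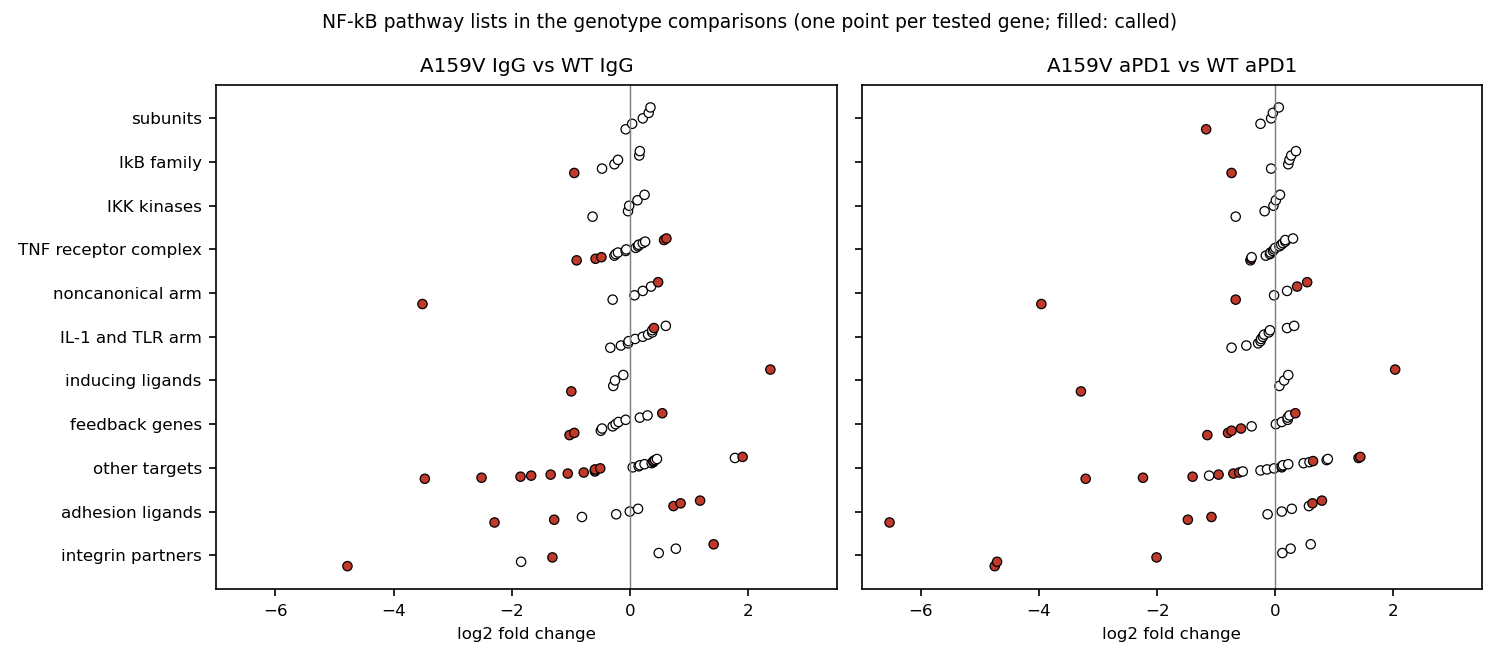
Log2 fold changes of every tested gene in 11 lists of the pathway, A159V against WT under IgG (left) and under aPD1 (right), with 1 point per gene and filled points for genes called. The other target genes, the largest list, have 9 of 22 lower and 2 higher under IgG, the adhesion ligands have 5 of 9 filled under each antibody, and the IKK kinases have none.

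The adhesion ligands comprised 14 genes, of which 9 were tested. Icam4, next to Icam1 on the same strand, was at 0 in every sample, and Madcam1, Sele, Selp and F11r were too low. Under IgG 3 were higher and 2 lower, and under aPD1 2 higher and 3 lower (medians 0 and 0.11). Icam5, 3255 bases from Icam1, was higher under IgG (0.86, adjusted p = 0.0458) with counts of 23 to 65 per sample. Mcam, a homophilic adhesion molecule, was higher in both (0.74, adjusted p = 0.00729 and 0.63, adjusted p = 0.02). Pecam1, of endothelium and leukocytes, was lower under aPD1 (-1.08, adjusted p = 0.0401). Selplg, the P-selectin ligand of leukocytes, was at 0.602 ± 0.318 CPM in WT IgG and 3.97 ± 0.991 in WT aPD1, and at 0 to 4 counts in each A159V sample. It was the 1 adhesion ligand called with anti-PD1 in WT (2.68, standard error 0.47, adjusted p = 0.0307).

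On the other side of the contact are integrin chains that leukocytes use, 7 genes of which 6 were tested. The list is not specific to leukocytes. Its member Itgb1 had group means of 584 to 821 CPM, beside 0.103 to 10.2 CPM for Ptprc. The cells in which Itgb1 was expressed were not tested. Under IgG 1 was higher and 2 lower in A159V, and under aPD1 0 higher and 3 lower. The median of the 6 differences on the log2 scale was -0.41 under IgG, or 0.17 with genes at or under 3 counts set to that level, and -0.94 under aPD1. Itgal, the alpha chain of LFA-1 that binds ICAM-1, rose from 6.59 ± 0.605 CPM in WT IgG to 17.6 ± 1.7 in A159V IgG (1.42, 0.15, 9.54e-05). With anti-PD1 in WT it rose to 12.9 ± 1.38 CPM (0.98, adjusted p = 0.0188). Its partner chain Itgb2 fell from 6.25 ± 2.98 to 2.54 ± 0.927 CPM under IgG (-1.31, 0.37, 0.0214) and from 10.1 ± 0.596 to 2.49 ± 0.625 CPM under aPD1 (-2.01, 0.38, 0.00268). Itga4, the VLA-4 chain that binds VCAM-1, was at 0.172 ± 0.176 CPM in WT IgG, 1.64 ± 0.527 in WT aPD1, 0 in A159V IgG and 0.054 ± 0.0545 in A159V aPD1. Both LFA-1 chains are leukocyte genes. The leukocyte marker sum given above, of which Cd68 made up most, was higher in A159V IgG than in WT IgG. Ptprc and Nkg7, both at low counts, were called lower there. The part of leukocytes in the integrin values was not tested.

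With anti-PD1 in WT, 3 of the 88 further genes were called, all higher, which is 3.41% beside 0.628% of all genes. They were Selplg, Itgal and Itgam, the Mac-1 alpha chain, which went from 0.199 ± 0.0456 to 1.12 ± 0.245 CPM (2.44, 0.49, 0.0439). All 3 are leukocyte genes, and Itgam is also among the leukocyte markers. Of the 10 leukocyte markers tested, 3 were called higher and 0 lower in this comparison. These were Itgam, Cd8a (4.53, adjusted p = 0.0301) and Nkg7 (2.58, adjusted p = 0.0492). The part of leukocytes in the 3 calls among the 88 genes was not tested. At an unadjusted p under 0.05 there were 26 of 88, near the 27.5% of all genes, and DESeq2 called 11 and voom 5 of them, beside 1478 and 188 genes called by these tools in all. With anti-PD1 in A159V, edgeR, DESeq2 and voom each called 0 of the 88, and 2 had an unadjusted p under 0.05. The interaction was called for 0 of 88 by edgeR and voom and for 3 by DESeq2, with 14 at an unadjusted p under 0.05. Median log2 fold changes over the 88 were 0.09 in WT and -0.01 in A159V, beside 0.01 and 0 over all genes, and the median interaction was -0.16 beside 0.01.

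The genes whose pattern over the 12 samples was most like each member were found by Pearson's r of log2 CPM. The 12 points share 4 groups and their libraries, and r is given as a description. Nfkbie was most like Cdkn2b (r = 0.983), Dap (0.982) and Nova1 (0.976). Icam1 was most like Grhl2 (0.947), Lama3 (0.93) and Qrich1 (0.924), and Vcam1 most like Rsrc2 (0.968), Fgf7 (0.965) and Stradb (0.963). For Nfkbia the nearest were Hist1h3b (0.936), A930004D18Rik (0.889) and Cmc2 (0.887), and for Nfkb1 they included Sf1 (0.962) and Thada (0.957). Rela was nearest to Map7d1 (0.882), Nfkb2 to Scd2 (0.848), Relb to Chrna1os (0.886), Birc3 to Mapk1ip1l (0.902) and Tnf to Dpysl2 (0.863). Among the 10 genes themselves, Nfkbie had r = 0.82 with Vcam1 and -0.81 with Icam1, and 0.17 and 0.15 after the group means were removed. Icam1 and Vcam1 had r = -0.6 over the 12 samples and 0.53 after the group means were removed.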

How the data were processed

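Paired reads of 100 bases were aligned by the authors with STAR (mm10), and after conversion by Samtools the reads of each gene were counted by summarizeOverlaps. Tool versions, the counting mode and the strand setting are not given in the sources used here, so values of genes that overlap others on either strand are uncertain. The values the authors deposited are raw counts per gene and sample, without normalization, and each label matched 1 column. Of 33219 features, 33217 were Ensembl genes and 31980 matched a GENCODE M21 symbol.

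The analysis used edgeR 4.0.16 (R 4.3.3): filterByExpr, TMM scaling, and 1 quasi-likelihood fit of the 4 groups over all 12 samples, with 8 residual degrees of freedom. Genes called had a Benjamini-Hochberg adjusted p under 0.05 over 14340 genes and a log2 fold change beyond 0.3 in either direction. The standard error was the log2 fold change divided by the square root of F. CPM were scaled by TMM, and RPKM used the merged length of all M21 exons of a gene. Log2 CPM had a prior count of 2. P-values measure the spread between mice. Floors of 3 counts cover counting error only.

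The 10 genes and the pathway and marker lists were chosen with earlier results of these data known. Genes named from a list were up to 5 called per comparison by smallest p, and up to 3 with the most similar pattern per gene. Alternatives covered scaling, filter, test (DESeq2 1.42.0, voom in limma 3.58.1), fitted groups, thinning, the replicate number as a block and each sample left out.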

Additional observations from a re-analysis of the deposited data

How the results depend on the processing

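The calls of Nfkbie and Vcam1 in both genotype comparisons, and of Icam1 under IgG, held under every alternative run, and 0 members were called with anti-PD1 in A159V under any of them. The members called numbered 3 under IgG, 4 with DESeq2 or upper-quartile factors (adding Nfkbia), 5 with the replicate block (adding Nfkb1 and Nfkbia) and 3 to 5 when 1 sample was left out. Under aPD1 they numbered 3, 5 when only the groups of the comparison were fitted (adding Relb and Birc3), 2 under the 5 settings that lost Icam1 (RLE, upper-quartile factors, at least 10 counts in every sample, voom and thinning) and 2 to 3 when 1 sample was left out. With anti-PD1 in WT they numbered 0, but 1 without a filter, with DESeq2 or with voom, 3 with the replicate block (Nfkbia, Tnf and Icam1) and 0 to 1 when 1 sample was left out. In the interaction they numbered 0, and 2 with the replicate block (Nfkbia and Vcam1). Calls added by the block do not rest on all samples. WT IgG replicate 4 and A159V IgG replicate 5 share their number with no other sample and add nothing to its comparisons. Replicate numbers belong to different mice. The deviations of same-numbered samples correlated between -0.18 and 0.2 over 13 pairs, and 3 of these were above 0.1. What the numbers stand for is not given in the labels, and these few overlapping pairs cannot decide whether same-numbered samples share a batch. The interaction was not refitted with only the groups of a comparison.

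Over all genes the calls under IgG numbered 4010, 1399 when only those groups were fitted, and 2578 to 4717 when 1 sample was left out. Under aPD1 they numbered 3075, 2014 with at least 10 counts in every sample, 5320 with only those groups, 5018 with the replicate block, and 1519 to 4134 when 1 sample was left out. With anti-PD1 in WT the 90 calls became 771 without a filter, 25 with at least 10 counts in every sample, 1478 with DESeq2, 188 with voom, 0 with only those groups, 4650 with the replicate block, and 1 to 3458 when 1 sample was left out, the highest without WT IgG replicate 4. In A159V DESeq2 called 2 in place of 0. The 1 interaction call became 0 with upper-quartile factors or thinning, 37 without a filter, 295 with DESeq2, 2760 with the replicate block, and 0 to 1182 when 1 sample was left out. Under IgG 2231 genes were called higher and 1779 lower, but 1680 and 2052 with RLE factors and 1337 and 2313 with upper-quartile factors, which moved the median of all genes to -0.12. Under aPD1 the split of 1613 and 1462 became 1123 and 1672 with RLE and 931 and 1788 with upper-quartile factors.

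Signs changed only where a difference had not been called. For Nfkb2 under IgG (0.04) the log2 fold change was -0.04 with RLE, -0.09 with upper-quartile factors, -0.02 without a filter, -0.08 with at least 10 counts, -0.04 with DESeq2, -0.03 with only those groups, -0.05 after thinning, and -0.1 to 0.17 when 1 sample was left out. For Nfkb2 under aPD1 (0.06) it was 0 with RLE and DESeq2, -0.03 with upper-quartile factors, -0.02 with at least 10 counts and with only those groups, and -0.01 to 0.14 when 1 sample was left out. The replicate block gave 0.02 for Birc3 under IgG, 0.11 for Birc3 in WT, -0.38 for Vcam1 in A159V, and -0.06 for Nfkb2 in the interaction, and voom gave 0 for Birc3 in WT. When 1 sample was left out, Tnf was -0.26 to 0.1 under IgG and -0.07 to 0.44 under aPD1, Nfkb1 -0.11 to 0.01 under aPD1, Relb -0.11 to 0.04 and Birc3 -0.12 to 0.17 with anti-PD1 in WT, and Icam1 -0.01 to 0.42 and Vcam1 -0.24 to 0.27 in A159V. In the interaction Nfkb2 was -0.1 to 0.13 and Vcam1 -0.44 to 0.06. The causes of these changes were not tested. With 3 mice per group, 95% intervals of the 10 genes spanned from 0.51 to 1.35 on the log2 scale in the pairwise comparisons, which limits the differences that could be shown.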
